A study of Mesocricetus auratus with 10 samples.

Results

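The enzymes of the methionine and one-carbon cycle were followed in the liver of golden hamsters (Mesocricetus auratus) on a high fat diet. The group comprised every non-control probe whose gene name on the array was SHMT1, SHMT2, MTHFD1, GNMT, MAT1A, BHMT, AHCY or CBS. Of these 8 genes 7 were present, among 14434 named genes, since no probe bore the name BHMT. They had 64 of the 116452 distinct probes, from 13 assembled transcript sequences (contigs). The study compared 10 males on the high fat diet (HFD), each liver by itself, with 1 pool that combined the liver RNA of 10 animals on the standard diet (STD) and is labelled male as well. Each HFD liver met the pool on 2 arrays of 2 colours, once in each dye, and the 10 animals on 20 arrays are the replicates. All values below are log2 ratios of HFD over the STD pool, averaged over the 2 arrays of an animal. The labels used here do not state what the diets held, how long they were fed or how old the animals were. The pool enters as 1 fixed reference, so the spread between STD animals was not measured, and p-values refer to the spread between HFD animals only.

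One-carbon metabolism passes single carbon units between amino acids, folates and methyl groups. Serine hydroxymethyltransferases and MTHFD1 load and interconvert folate-bound units. MAT1A turns methionine into S-adenosylmethionine (SAM), the methyl donor of the cell, methyltransferases such as GNMT use it, AHCY splits the S-adenosylhomocysteine they leave, and the homocysteine is either methylated again, among others by the betaine-dependent enzyme BHMT, or drawn off towards cysteine by CBS. The liver is the main site of this methyl group turnover.

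The probes are 60 bases long. Several probes of CBS and SHMT2 are printed because they read the same bases on opposite strands and their values are set side by side below. In each line the capitals mark the run of bases that a probe shares with the reverse complement of its partner. Probe names and sequences are those of the array files. No transcript sequence was used here, so which strand is the messenger strand and which exon or untranslated part a probe lies in were not determined.
CBS probe CUST_34098_PI426903241: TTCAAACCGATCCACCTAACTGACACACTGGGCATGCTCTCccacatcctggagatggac
CBS probe CUST_79839_PI426903241: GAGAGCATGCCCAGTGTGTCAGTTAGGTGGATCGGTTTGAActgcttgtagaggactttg
SHMT2 probe CUST_73066_PI426903241: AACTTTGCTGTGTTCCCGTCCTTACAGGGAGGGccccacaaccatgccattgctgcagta
SHMT2 probe CUST_74717_PI426903241: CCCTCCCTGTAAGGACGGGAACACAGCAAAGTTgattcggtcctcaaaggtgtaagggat
SHMT2 probe CUST_73064_PI426903241: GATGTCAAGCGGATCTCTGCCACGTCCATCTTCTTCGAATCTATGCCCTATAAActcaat
SHMT2 probe CUST_74719_PI426903241: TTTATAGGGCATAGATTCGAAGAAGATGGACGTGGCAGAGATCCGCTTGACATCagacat

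A probe with no partner is shown for SHMT1, the gene with the lowest ratio of the group, and for MAT1A, whose ratio moved with the dye. These are the brightest probes of their genes.
SHMT1 probe CUST_76850_PI426903241: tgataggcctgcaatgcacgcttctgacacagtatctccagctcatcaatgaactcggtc
MAT1A probe CUST_71321_PI426903241: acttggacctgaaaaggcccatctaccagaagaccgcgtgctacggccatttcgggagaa

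All 64 probes passed the filter on dim probes, and for 63 of them the HFD signal was well above background on all 20 arrays. The exception was an SHMT2 probe. Over all probes this share was 77.2% to 97.7% per array for HFD and 76.7% to 96.7% for the pool, and no spot was saturated. The number of arrays limits the precision. The 6 arrays with HFD in Cy3 of animals 5 to 10 stood apart. Over the genes tested, their log2 ratios correlated among themselves at a median r of 0.88, the other 14 arrays among themselves at 0.63, and the 6 with the 14 at 0.49. The ranges were 0.84 to 0.93, 0.29 to 0.81 and 0.37 to 0.78. The 6 arrays share 1 dye orientation and the 14 hold both, so these correlations do not separate the dye from the set of arrays. Values of genes without these 6 arrays, given beside the results, come from a limma fit of the other 14 arrays, each entered singly, which included the dye orientation as a coefficient and treated animals as random blocks. Its estimate is the midpoint of both orientations, so it differs from the plain mean of the 14 arrays, 10 of which have HFD in Cy5.

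Over all genes, 60.3% of the 13827 tested passed limma's test at a Benjamini-Hochberg adjusted p under 0.05, with 31.4% higher and 28.9% lower in HFD. A count of called members says little by itself at this level. Of the 7 genes, each read by its brightest probe, 3 were higher (MTHFD1, CBS and MAT1A), 3 were lower (SHMT1, SHMT2 and AHCY), and GNMT was not called. Their median was 0.08, and that of all genes tested was 0.01. The sizes separated them further. SHMT1 and SHMT2 were the only members past an absolute log2 ratio of 0.5, a size that 5.87% of all genes reached with a call.

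**Figure D1:**
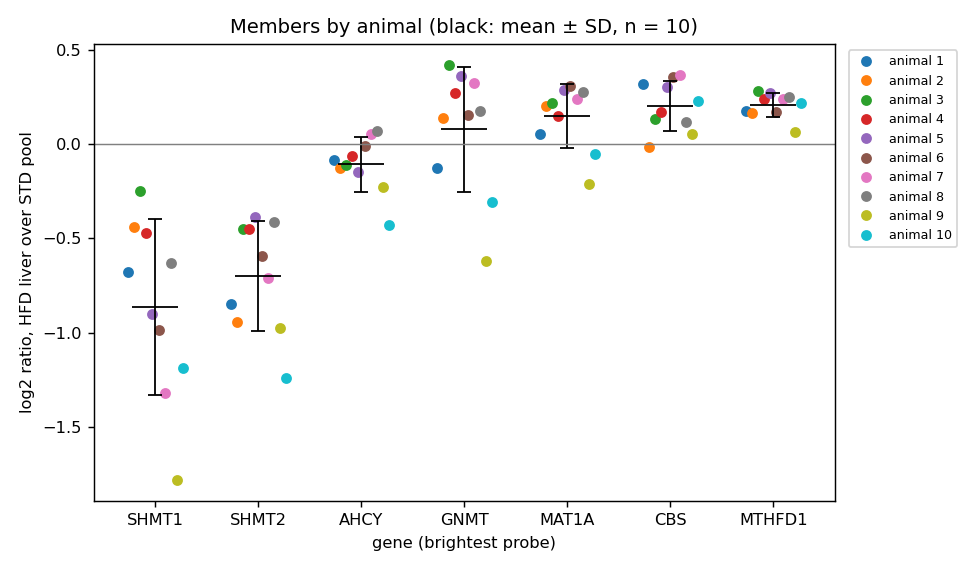
Log2 ratio of HFD liver over the STD pool (vertical axis) for the brightest probe of each of the 7 genes (horizontal axis), with 1 coloured point per animal and black bars for the mean ± SD of 10 animals. All animals lie below 0 for SHMT1 and SHMT2 and above 0 for MTHFD1, and the other 4 genes have animals on both sides of 0.

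SHMT1, the cytosolic enzyme that moves a carbon from serine to tetrahydrofolate, was lower in every animal. Its ratio ranged from -1.78 in animal 9 over a median of -0.79 to -0.25 in animal 3. All 10 animals lay below 0, which was the case on 1 side or the other for 31.5% of genes. The mean was -0.86 ± 0.47 (SD, n = 10), a 1.82-fold lower level in HFD (limma adjusted p = 6.02e-05), and 0.608% of tested genes had a mean this low or lower. The interval of the mean (95%) ran from -1.20 to -0.53. All 7 SHMT1 probes were called lower, with means from -0.86 to -0.60, and each had all 10 animals below 0.

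How far SHMT1 fell depended on the arrays. With HFD in Cy5 the brightest probe gave -0.79 ± 0.16 (SD, n = 4) in animals 1 to 4 and -0.74 ± 0.27 (SD, n = 6) in animals 5 to 10. With HFD in Cy3 it gave -0.13 ± 0.21 (SD, n = 4) in animals 1 to 4, with arrays on both sides of 0, and -1.53 ± 0.57 (SD, n = 6) in animals 5 to 10. The other 6 probes of the gene were lower in animals 5 to 10 on the Cy3 arrays as well: over all 7 probes the means lay between -1.53 and -0.84 there, and between -0.32 and 0.03 in animals 1 to 4. Without the 6 arrays the gene was still lower, at -0.44 (limma adjusted p = 7.76e-06), and the plain mean of the 14 arrays was -0.58. The share of these arrays in the size of the fall was not tested.

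SHMT2, the mitochondrial counterpart of SHMT1, was lower by a similar amount. Its ratio ranged from -1.24 in animal 10 over a median of -0.65 to -0.39 in animal 5, and again no animal reached 0. The mean was -0.70 ± 0.29 (SD, n = 10), a 1.63-fold lower level (limma adjusted p = 7.79e-06). All 15 SHMT2 probes, spread over 3 contigs, were called lower, with means from -0.85 to -0.27, and all had the 10 animals below 0. In contrast to SHMT1, the 15 probes had negative means in each of the 4 sets of arrays formed by dye and by animals 1 to 4 or 5 to 10. SHMT2 stood at -0.63 without the 6 arrays.

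The means of SHMT1 and SHMT2 differed by -0.16 ± 0.42 (SD, n = 10; exact sign-flip permutation test, two-sided, p = 0.246). The interval of the difference ran from -0.46 to 0.13, and SHMT1 was the lower of the pair in 6 of 10 animals. In animals 1 to 4 SHMT1 stood at -0.46 and SHMT2 at -0.67, and in animals 5 to 10 at -1.14 and -0.72.

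MTHFD1, the multifunctional cytosolic enzyme that interconverts formyl, methenyl and methylene folates, was higher. The ratio of its brightest probe ranged from 0.07 in animal 9 over a median of 0.23 to 0.28 in animal 3. This was the narrowest spread among the brightest probes of the 7 genes, but over the 14 MTHFD1 probes the SD ran from 0.06 to 0.24. The mean was 0.21 ± 0.07 (SD, n = 10), 1.16-fold higher in HFD (limma adjusted p = 1.28e-05). All 14 probes, from a single contig, were called higher, with means from 0.21 to 0.43, and 12 of them had all 10 animals above 0. The brightest probe gave the smallest mean of the 14. For 13 probes the mean was above 0 in both dye orientations, and 1 probe stood at -0.0028 with HFD in Cy5. By its brightest probe MTHFD1 stood at 0.28 when the 6 arrays were left out. On these 6 arrays that probe had the lowest mean of the 14, at 0.09, while the median of the 14 probe means was 0.54. This median was 0.31 on the Cy3 arrays of animals 1 to 4. With HFD in Cy5 it was 0.21 in animals 5 to 10 and 0.09 in animals 1 to 4, with 3 probes below 0.

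Across the 64 probes, 22 were called higher and 31 lower. Of the 103879 probes tested on the array, 55.1% were called, 26.7% higher and 28.4% lower. The 22 higher probes were the 14 of MTHFD1, the 6 of MAT1A and 2 of CBS. The 31 lower ones were the 22 of SHMT1 and SHMT2, 5 of CBS and 4 of AHCY. The remaining 11 were not called, namely the 6 of GNMT, 3 of AHCY and 2 of CBS. Probes of 1 gene share their transcript and the same RNA and are no replicates of each other.

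**Figure D2:**
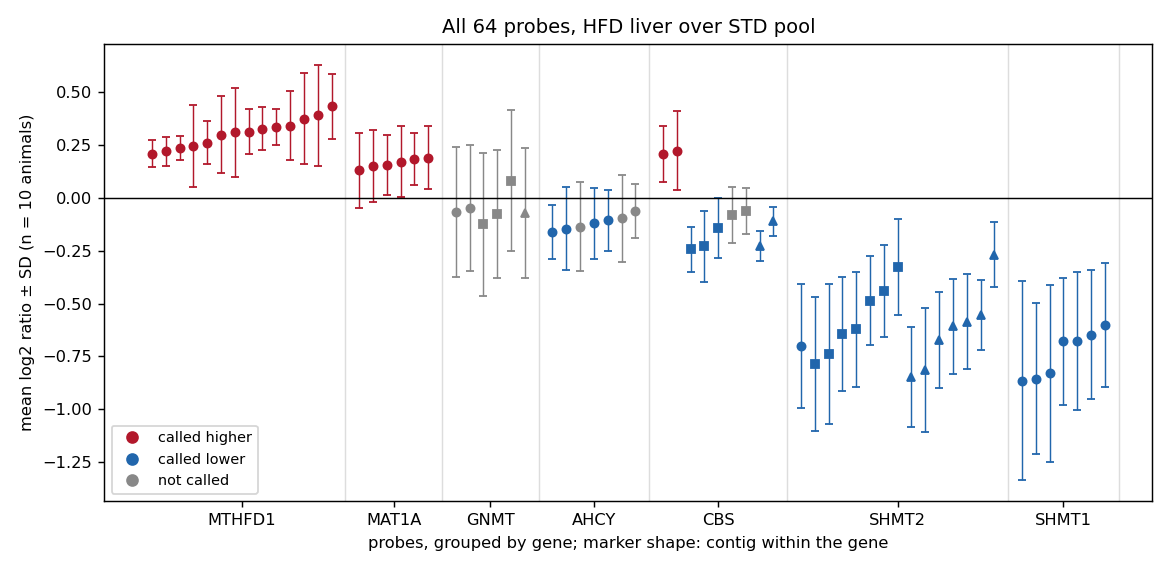
Mean log2 ratio of HFD over the STD pool (vertical axis, bars are the SD over 10 animals) for each of the 64 probes, grouped by gene along the horizontal axis, with marker shape for the contig and colour for the call. The probes of MTHFD1 and MAT1A lie above 0, those of SHMT1 and SHMT2 below 0, and CBS has 2 higher probes on 1 contig and lower or uncalled probes on the other 2 contigs.

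In the methionine cycle proper the changes were small. MAT1A, the methionine adenosyltransferase of the adult liver, ranged from -0.21 in animal 9 over a median of 0.21 to 0.31 in animal 6. Animals 9 and 10 lay below 0 and the other 8 above. The mean was 0.15 ± 0.17 (SD, n = 10), 1.11-fold higher (limma adjusted p = 0.0169), and all 6 probes were called higher, with means from 0.13 to 0.19. Leaving out the 6 arrays gave 0.17 (limma adjusted p = 0.0116), beside a plain mean of 0.05 over the 14 arrays, with 6 arrays above 0 and 8 below.

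The rise of MAT1A was larger with HFD in Cy3. Of its 6 probes, 4 were above 0 in both orientations, and the brightest probe reversed with HFD in Cy5. The probe gave 0.41 on the Cy3 arrays and -0.11 on the Cy5 arrays (limma adjusted p = 5.29e-05 and 0.0763). All 6 MAT1A probes differed between orientations by limma's test of that difference, as did 43.5% of all probes tested. Over the 64 probes, 30 did so: all 6 of MAT1A, 12 of 14 of MTHFD1, 6 of 15 of SHMT2, 4 of 7 of AHCY, 2 of 9 of CBS, and none of SHMT1 or GNMT. The test takes the mean difference over 10 animals, in which differences of opposite sign can cancel. In animals 1 to 4 the brightest SHMT1 probe gave -0.79 with HFD in Cy5 and -0.13 with HFD in Cy3. In animals 5 to 10 it gave -0.74 and -1.53. The brightest GNMT probe gave 0.05 and 0.30 in animals 1 to 4, and 0.13 and -0.10 in animals 5 to 10. The averaged ratio of an animal holds both orientations equally.

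GNMT, the abundant liver methyltransferase that passes methyl groups of SAM to glycine, was not called. It ranged from -0.62 in animal 9 over a median of 0.17 to 0.42 in animal 3, with 7 animals above 0 and 3 below. The mean was 0.08 ± 0.33 (SD, n = 10; limma adjusted p = 0.45), and its interval from -0.16 to 0.32 leaves room for a change of either sign. None of the 6 GNMT probes was called, and 5 of them had means below 0, down to -0.12. Without the 6 arrays the brightest probe stood at 0.21 and was called (limma adjusted p = 0.0277), with a plain mean of 0.16 over the 14 arrays. On the 6 arrays all 6 GNMT probes had means below 0, and on the Cy3 arrays of animals 1 to 4 all 6 had means above 0. With HFD in Cy5, 5 of the 6 probes had means below 0 in animals 1 to 4, and 2 of the 6 in animals 5 to 10.

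AHCY, the hydrolase of S-adenosylhomocysteine, ranged from -0.43 in animal 10 over a median of -0.10 to 0.07 in animal 8. The mean was -0.11 ± 0.14 (SD, n = 10), 1.08-fold lower, with 8 of 10 animals below 0 (limma adjusted p = 0.0436). Of its 7 probes, 4 were called lower and 3 were not called, with means from -0.16 to -0.06. The call was lost without animal 1, 2, 3, 4, 5, 9 or 10 (limma adjusted p from 0.0558 to 0.0937). With HFD in Cy3 alone the brightest probe stood at 0.05 (limma adjusted p = 0.355), and with HFD in Cy5 alone at -0.27 (limma adjusted p = 0.000139). AHCY stood at -0.11 without the 6 arrays (limma adjusted p = 0.0342).

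**Figure D3:**
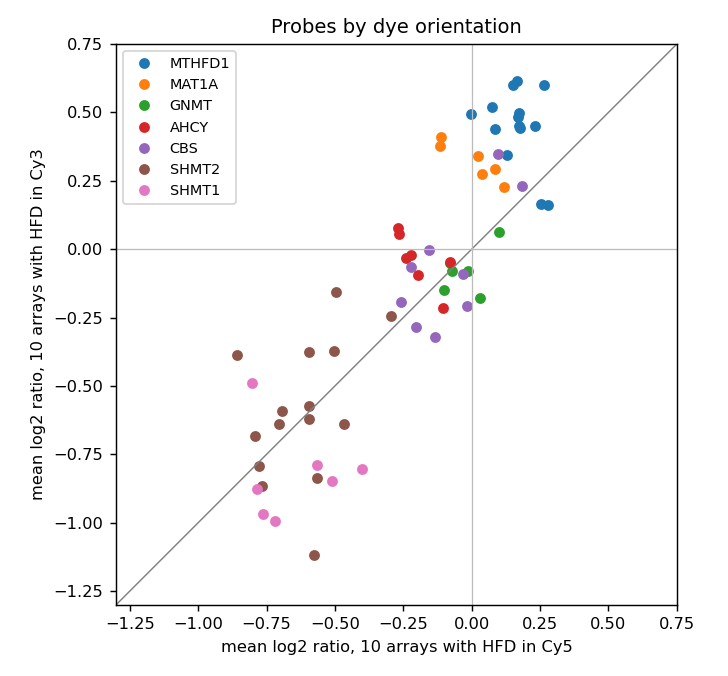
Mean log2 ratio of each of the 64 probes on the 10 arrays with HFD in Cy5 (horizontal axis) against the 10 arrays with HFD in Cy3 (vertical axis), coloured by gene, with the line of equal values. All SHMT1 and SHMT2 probes lie below 0 on both axes, and 6 of the 64 probes have opposite signs, 2 each of MAT1A and AHCY and 1 each of GNMT and MTHFD1.

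CBS, which commits homocysteine to cysteine synthesis, had no single direction. Its brightest probe ranged from -0.01 in animal 2 over a median of 0.20 to 0.37 in animal 7, with 9 animals above 0. The mean was 0.21 ± 0.13 (SD, n = 10), 1.15-fold higher (limma adjusted p = 0.000558), and 0.19 without the 6 arrays (limma adjusted p = 0.00179). The 9 probes split by contig. Both probes of contig hamV2-14913 were called higher, at 0.21 and 0.22. Of the 5 probes of contig hamV2-63823, 3 were called lower and 2 were not called, with a median of -0.14, and both probes of contig hamV2-7068 were called lower, with a median of -0.17. The mean over all 9 probes was -0.07 (limma adjusted p = 0.0284), so that the sign of the gene turns on the probe that stands for it. The probes also differed in brightness. The median raw HFD signal was 2091 and 3133 for the probes of contig hamV2-14913. It ran from 171 to 564 for those of contigs hamV2-63823 and hamV2-7068.

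The brightest CBS probe and a probe of contig hamV2-63823 share 41 bases on opposite strands, as shown above, and yet had opposite signs. CUST_34098_PI426903241 stood at 0.21 and CUST_79839_PI426903241 at -0.23, with median raw HFD signals of 3133 and 270. The difference was 0.43 ± 0.23 (SD, n = 10), with an interval from 0.27 to 0.60, and it was above 0 in 9 of 10 animals (exact sign-flip permutation test, two-sided, p = 0.00391, adjusted p = 0.00977 over 5 pairs). It was 0.32 with HFD in Cy5, 0.55 with HFD in Cy3, and 0.29 as a plain mean over the 14 arrays.

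SHMT2 had 4 such pairs, and both partners were called lower in each. The probe of contig hamV2-54346 was the lower in 3 pairs. For CUST_73066_PI426903241 and CUST_74717_PI426903241, which share 33 bases, the means were -0.33 and -0.67, and the difference of 0.35 ± 0.15 (SD, n = 10) was above 0 in all 10 animals (exact sign-flip permutation test, two-sided, p = 0.00195, the smallest that 10 animals allow; adjusted p = 0.00977). It was 0.21 with HFD in Cy5 and 0.48 with HFD in Cy3. The median raw HFD signals of these partners were 4099 and 328. The pair with 54 shared bases, CUST_73064_PI426903241 and CUST_74719_PI426903241, stood at -0.62 and -0.85, but their difference turned from -0.28 with HFD in Cy5 to 0.73 with HFD in Cy3, and was -0.10 as a plain mean over the 14 arrays. The SHMT2 probes of both orientations were lower, and in the 54-base pair the order of the partners turned with the dye. Which strand gave the signal of each partner was not tested.

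Animals 9 and 10 had the low end of most members. By the brightest probes, animal 9 was the lowest for SHMT1, MTHFD1, MAT1A and GNMT, and animal 10 for SHMT2 and AHCY. For MTHFD1, MAT1A, GNMT and SHMT2 this held for some of their probes only. In the MTHFD1 probe CUST_96481_PI426903241 animal 9 stood at 0.54, and animal 2 was the lowest at -0.07. Animal 2 was also the lowest in the MAT1A probe CUST_71316_PI426903241, at -0.03. The lowest was animal 1 in the GNMT probe CUST_22047_PI426903241, at -0.59, and animal 9 in the SHMT2 probe CUST_73066_PI426903241, at -0.83. Of the 21 pairs of members compared over the 10 animals, GNMT with MAT1A had the highest Pearson correlation (r = 0.92, permutation p = 0.0014, adjusted p = 0.0286; Spearman rho = 0.66, adjusted p = 0.182). Without the 2 animals farthest from the median of GNMT, r was 0.58. It was 0.84 in animals 1 to 4 and 0.96 in animals 5 to 10, and 0.88 and 0.90 on the Cy5 and Cy3 arrays. By Spearman's rho 4 other pairs stood higher. These were GNMT with MTHFD1 (rho = 0.84, adjusted permutation p = 0.0521; r = 0.81, adjusted p = 0.0559), GNMT with SHMT2 (rho = 0.83, adjusted permutation p = 0.0521; r = 0.77, adjusted p = 0.0559), MTHFD1 with SHMT2 (rho = 0.79) and MAT1A with SHMT2 (rho = 0.75). SHMT1 with SHMT2 had r = 0.48 (adjusted permutation p = 0.255; rho = 0.44, adjusted p = 0.401). All ratios share the pool and the arrays, and each gene is read here by its brightest probe alone.

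The genes whose ratios over the 10 animals were most like that of SHMT1 were UGT2A1, a glucuronosyltransferase (r = 0.97, mean -0.46), AKR1C21, an aldo-keto reductase (r = 0.97, mean -0.37), and HSD17B13, a dehydrogenase of lipid droplets (r = 0.97, mean -1.02). For MTHFD1, the member with the highest mean, they were 2410016O06RIK (r = 0.96, mean -0.07), OAF (r = 0.91, mean 0.26) and DUSP5, a dual-specificity phosphatase (r = 0.90, mean 0.0015). These are descriptions over 10 animals, picked as the closest among the 13827 genes tested, each gene read by its brightest probe.

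The other genes of the surrounding pathways, from a list of 87, moved in both directions. Of the 79 tested, 23 were higher, 28 were lower and 28 were not called, with a median of -0.01. These shares, 29.1% and 35.4%, lie near the 31.4% and 28.9% of all genes. Of the 51 called, 44 kept their sign under every alternative processing tried, and the 7 that did not were DLD, FPGS, GSR, MTR, SLC25A32, SLC6A12 and SMS. Only 19 of the 51 were also called with the same sign under every alternative. Without the 6 arrays 13 of the 51 lost their call, with values between -0.08 and 0.14 (among them PAOX, BHMT2, CHPT1, PCYT1A, CHDH, SLC44A1, GGH, FPGS, GATM, MTR, ADK and GSR), and 9 others stayed called at a value over 1.5 times smaller (among them GAMT, SLC19A1, GLYCTK, DLD, ADI1, MTAP, MMACHC and CDO1). The counts rest on the brightest probes. Among uncalled genes, most probes were called lower for MAT2B (4 of 5), MRI1 (3 of 4), AMT (4 of 5), SLC46A1 (3 of 5) and ODC1 (2 of 3). Most were called higher for SLC44A2 (5 of 7) and GLDC (4 of 5). Genes of this list with a change under 0.5 are named only where they complete a small count or their probes disagree. They were chosen after their values were seen.

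In the folate cycle 4 of 13 tested genes were higher and 4 lower, with a median of 0.02. ALDH1L1, the cytosolic formyltetrahydrofolate dehydrogenase, fell the most. It ranged from -1.07 over a median of -0.59 to -0.35, all 10 animals below 0, with a mean of -0.67 ± 0.22 (SD, n = 10), 1.59-fold lower (limma adjusted p = 1.37e-06). All 14 ALDH1L1 probes were called lower. GGH at -0.31, SLC19A1 at -0.28 and SLC25A32 at -0.23 were the other lower genes, the last 2 being folate carriers. Among the higher genes were FTCD at 0.19, MTHFS at 0.32 and FPGS at 0.36, but 5 of the 6 FPGS probes were lower.

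Among glycine, sarcosine and serine genes, 3 of 17 were higher and 5 lower, with a median of -0.05. PSAT1, the phosphoserine aminotransferase of serine synthesis, had the lowest ratio of the whole list. It ranged from -1.78 over a median of -1.28 to -1.12, all 10 animals below 0, with a mean of -1.36 ± 0.21 (SD, n = 10), 2.57-fold lower (limma adjusted p = 1.62e-09), and its 3 probes were all called lower. GLYCTK, GLYAT, GCSH and GATM were lower at -0.38, -0.35, -0.27 and -0.07. SARDH and PIPOX, which oxidise sarcosine, were higher at 0.15 and 0.23, and DLD at 0.25.

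Among choline and betaine genes, 3 of 9 were higher and 5 lower, with a median of -0.11. BHMT2 is the paralogue of BHMT and methylates homocysteine from S-methylmethionine. Its brightest probe ranged from -1.69 over a median of -0.62 to 0.41, with 8 of 10 animals below 0, and the mean was -0.54 ± 0.62 (SD, n = 10; limma adjusted p = 0.0117). The 8 BHMT2 probes disagreed. On contig hamV2-103939 all 4 were called higher, from 0.19 to 0.35, and 3 probes of contigs hamV2-111893 and hamV2-147133 were called lower, from -0.54 to -0.44. Whether a contig named BHMT2 also reads BHMT was not tested. Without the 6 arrays BHMT2 stood at -0.08 (limma adjusted p = 0.606), and the counts of the choline and betaine list were 2 higher and 1 lower. CHPT1, PCYT1A, SLC6A12 and CHDH were lower at -0.20, -0.19, -0.14 and -0.11, and SLC44A1, ALDH7A1 and CHKA were higher at 0.18, 0.25 and 0.28.

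In methionine synthesis and salvage, 3 of 14 genes were higher and 5 lower, with a median of 0.03, and none reached 0.5. By the mean of all probes, the uncalled MAT2B stood at -0.21 and MRI1 at -0.10 (limma adjusted p = 0.000317 and 0.00162). The smallest p-values were those of ADI1, the acireductone dioxygenase of methionine salvage, at -0.42 ± 0.23 (SD, n = 10; limma adjusted p = 9.22e-05), and MMACHC, a cobalamin processing protein, at -0.34 ± 0.20 (SD, n = 10; limma adjusted p = 0.000147). All 10 animals lay below 0 for ADI1 and 9 of 10 for MMACHC. MTAP, AHCYL1 and MMADHC were lower at -0.41, -0.22 and -0.12. MTR, the methionine synthase, was higher at 0.10, AHCYL2 at 0.12 and ADK at 0.13. Of their probes, 1 of 4 of MTR, 6 of 8 of AHCYL2 and 1 of 3 of ADK were called higher. The mean of all probes was 0.02 for MTR and 0.05 for ADK (limma adjusted p = 0.226 and 0.0977).

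Among SAM-using methyltransferases and polyamine genes, 5 of 13 were higher and 5 lower, with a median of 0.02. INMT, indolethylamine N-methyltransferase, was the highest gene of the list. It ranged from 0.99 over a median of 1.64 to 2.10, all 10 animals above 0, with a mean of 1.56 ± 0.31 (SD, n = 10), 2.94-fold higher (limma adjusted p = 1.12e-08), and its 3 probes were all called higher. GAMT, the methyltransferase of creatine synthesis, ranged from -0.9997 over a median of -0.44 to -0.10 and had a mean of -0.50 ± 0.30 (SD, n = 10; limma adjusted p = 0.000132). PAOX, SRM and PEMT were also lower, at -0.41, -0.40 and -0.36. TPMT, AS3MT, AMD1 and SMS were higher at 0.40, 0.35, 0.22 and 0.13. Of the 5 SMS probes 2 were called higher and 1 lower.

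Downstream of CBS, in transsulfuration, cysteine and glutathione metabolism, 5 of 13 genes were higher and 4 lower, with a median of -0.02. CDO1, the cysteine dioxygenase, ranged from -1.44 over a median of -0.99 to -0.26, all 10 animals below 0, with a mean of -0.91 ± 0.38 (SD, n = 10), 1.89-fold lower (limma adjusted p = 6.3e-06). SUOX, the sulfite oxidase, ranged from 0.53 over a median of 0.72 to 0.80, all 10 animals above 0, with a mean of 0.70 ± 0.10 (SD, n = 10), 1.62-fold higher (limma adjusted p = 2.4e-09). GSS, the glutathione synthetase, ranged from -0.51 over a median of 0.64 to 1.29, with 8 of 10 animals above 0 and a mean of 0.54 ± 0.55 (SD, n = 10; limma adjusted p = 0.00615). CTH, the enzyme after CBS, was higher at 0.43, GCLM at 0.17 and TST at 0.16, and GCLC, CSAD and GSR were lower at -0.32, -0.25 and -0.09. Of the 12 GCLC probes 3 were called lower and 2 higher, and their mean was -0.0031 (limma adjusted p = 0.935). Of the 2 GCLM probes 1 was called higher. Without the 6 arrays CDO1 stood at -0.52, GAMT at -0.32, ADI1 at -0.19 and MMACHC at -0.19, each still called, while PSAT1 stood at -1.22, ALDH1L1 at -0.49, INMT at 1.55, SUOX at 0.74 and GSS at 0.60.

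**Figure D4:**
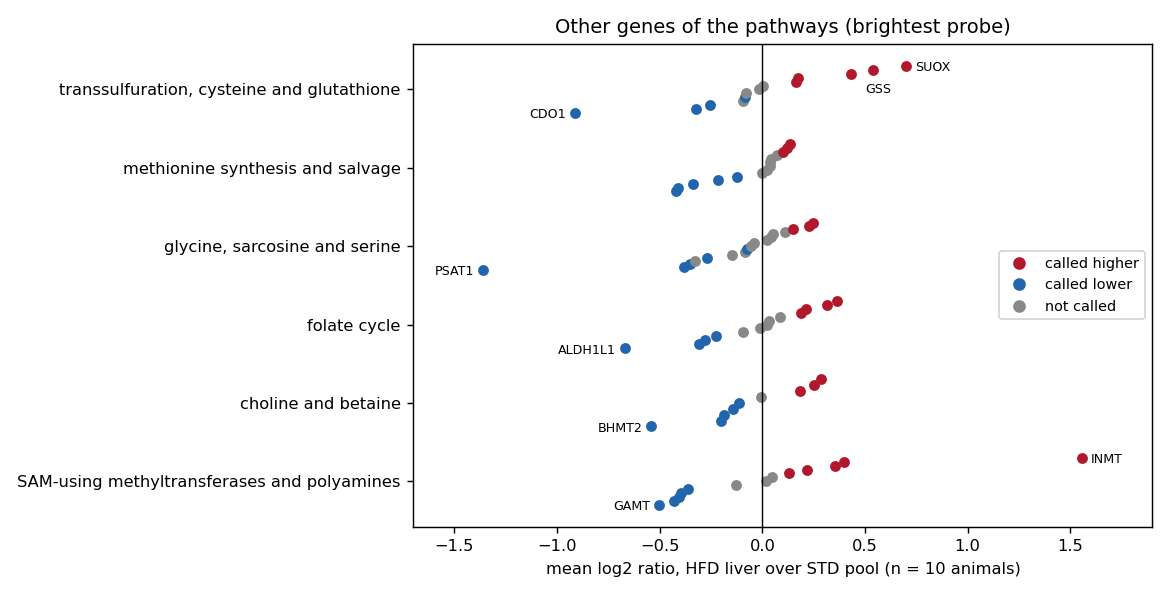
Mean log2 ratio over 10 animals (horizontal axis) for the 79 tested genes of 6 surrounding pathways (vertical axis), 1 point per gene by its brightest probe, coloured by call, with the called genes of at least 0.5 in size named. PSAT1 at -1.36 and INMT at 1.56 lie farthest from 0, and called genes of both directions stand in every pathway.

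Markers of liver cells were read in the same way, beside 31.4% higher and 28.9% lower over all genes. Of the 13 markers of hepatocytes, the main cell of the labelled tissue, 11 passed the filter, and 0 of these were higher and 9 lower, with a median of -0.39 and a mean per animal from -0.65 to -0.26. Of 9 periportal hepatocyte markers 0 were higher and 7 lower (median -0.81, mean per animal from -1.19 to -0.45), and of 8 pericentral ones 2 were higher, GLUL and SLC1A2, and 3 lower, AXIN2, OAT and RHBG (median 0.06), though 2 of the 3 AXIN2 probes were called higher. Of 7 macrophage markers 4 were higher (CD68, MARCO, CLEC4F and CSF1R) and 3 lower (CD163, C1QA and C1QB), with a mean per animal from -0.16 to 0.19. Of 9 stellate cell and fibroblast markers 3 were higher (RELN, ACTA2 and COL1A1) and 2 lower (DCN and LUM), with a median of 0.01. Only 3 of 12 RELN, 3 of 10 ACTA2 and 1 of 3 COL1A1 probes were called higher, and 1 of 5 LUM probes lower. Of 8 endothelial markers 3 were higher (STAB2, PECAM1 and VWF) and 2 lower (LYVE1 and CDH5), with a median of 0.04. Here 1 of 8 STAB2 and 2 of 5 VWF probes were called higher, and 1 of 6 CDH5 probes lower. Among the uncalled endothelial markers, 4 of 5 ERG and 2 of 10 TEK probes were called higher. Of the 22 KDR probes 9 were called lower and 1 higher. Of 4 cholangiocyte markers 0 were called by limma by their brightest probes, and 0 had an unadjusted p under 0.05 (median 0.01). However, 2 of the 3 EPCAM probes were called lower, and the median of their means was -0.26. HSD17B13, 1 of the 3 genes most like SHMT1, is in the periportal list. In whole liver RNA, fewer cells of a type and less RNA per cell cannot be told apart, and the part of these cell types in the lower SHMT1 and SHMT2 was not tested.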

How the data were processed

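RNA of 10 HFD livers and 1 STD pool was hybridised to 20 Agilent arrays of 2 colours after whole-transcript labelling, per the labels' protocols. The dye of each RNA was read from the array names, and the direction of all ratios rests on them. There were 7 slides and 3 scan sessions, all holding this 1 comparison.

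Spot and background intensities were made with Agilent Feature Extraction 10.7.3.1, per the file headers, and so were the processed intensities used as an alternative. A table of log2 ratios was deposited by the authors besides. Its tool was limma according to the submitters' processing notes, and its other steps are not stated in the sources used here. Against the ratios computed here these columns correlated at r from 0.814 to 0.885 over probes, with slopes from 1.12 to 1.59, and with the red over green ratio at r from 0.51 to 0.822 on arrays with HFD in Cy5 and from -0.861 to -0.709 with HFD in Cy3. They thus run as HFD over pool on a log2 scale, and their exact scale and centring stay unknown. Their medians for animals 1 to 10 were 3.4e-05, -0.014, -0.0004, -0.0017, 0.019, -0.012, -0.0098, 0.0075, -0.0012 and -0.01.

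Intensities were corrected with normexp (offset 50) and loess within arrays in limma 3.58.1 under R 4.3.3, control and outlier spots left out. Probes were kept when well above background in either RNA on at least 10 of 20 arrays with a value on all. The brightest probe stood for its gene. Mean ratios were tested against 0 with lmFit and eBayes, two-sided, adjusted over 13827 genes or 103879 probes (Benjamini-Hochberg, threshold 0.05). The computation was tested on simulated data. Gene names are those of the array design, and 76.8% of the tested names occur among RefSeq symbols of the assembly BCM_Maur_2.0. Correlations carry permutation p from 100000 resamples. Strand pairs are probes that share at least 20 bases on opposite strands.

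The members, the pathway lists and the cell type lists were chosen with earlier results of these data known, and so was the split into animals 1 to 4 and 5 to 10 and the set of 6 arrays. Named genes are all members, called pathway genes with an absolute mean of at least 0.5 (or the 2 with the smallest p), and the 3 genes most like the highest and the lowest member. Other names are marked. Some genes of the lists are counted but not reported here by name.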

Additional observations from a re-analysis of the deposited data

Results flagged for a closer look

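By its brightest probe, MTHFD1 in animal 9 had a log2 ratio of 0.065 while the other 9 animals lay between 0.17 and 0.28. Its gap to the nearest animal was 0.468 of the whole range, just past Dixon's critical value for 10 samples. Chance passes this value in about 1 in 20 groups, and 7 genes were examined. By the brightest probes, animal 9 was also the lowest animal for SHMT1, MAT1A and GNMT, none of which passed it. Animal 9 was not the lowest in every MTHFD1 probe.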

How the results depend on the processing

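SHMT1, SHMT2 and MTHFD1 kept their direction and their call under all 27 alternatives, with ranges of -1.14 to -0.44, -0.84 to -0.57 and 0.16 to 0.31. AHCY kept its call in 13 of 27, CBS in 25 and MAT1A in 22. GNMT was called under 1 alternative, the 14 arrays (0.21). Signs reversed for AHCY with HFD in Cy3 only (0.054), MAT1A with HFD in Cy5 only (-0.11), and CBS (-0.074) and GNMT (-0.051) as the mean of all probes. Member probes called higher fell from 22 to 12 with HFD in Cy5 only and to 8 in animals 1 to 4. Over all genes, the third scan session alone called 2735 higher and 2360 lower, animals 1 to 4 called 2227 and 1614, and the 14 arrays called 2529 lower. Over all probes the third session called 14957 higher and 15298 lower, animals 1 to 4 called 10854 and 10529, and the 14 arrays called 18894 lower. These settings use fewer arrays. The MAT1A call was lost with median centring (limma adjusted p = 0.0508), the authors' ratios (0.0615), the third session (0.172) and animals 5 to 10 (0.113), and the CBS call in animals 1 to 4 (0.0872). The AHCY call was also lost with processed signals (0.0628), median centring (0.113), the authors' ratios (0.0662), the first session (0.139), animals 1 to 4 (0.145) and animals 5 to 10 (0.148). Without 1 animal at a time, called genes numbered 4054 to 4496 higher and 3755 to 4050 lower, member genes 3 higher and 2 to 3 lower, and member probes 21 to 22 higher and 28 to 31 lower. No paired analysis was possible because only 1 group was hybridised singly and no second group shares its replicate numbers. The 2 arrays of an animal were averaged.

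The pool is 1 RNA, so that an unusual STD animal or a fault of the pool enters every ratio and cannot be told apart from the diet. Small ratios such as those of AHCY, MAT1A and CBS lie within the range that dye, probe and arrays move. Strand and position of probes on the transcripts were not determined.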

Other observations

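The glycine cleavage gene GLDC, chosen after its values were seen, was not called by its brightest probe (0.02 ± 0.14, SD, n = 10; limma adjusted p = 0.671), but 4 of its 5 probes were called higher. The 3 probes of contig hamV2-57623 gave 0.67 to 0.69, with all 10 animals above 0 in each. The 2 probes of contig hamV2-150733 gave 0.02 and 0.27. The mean over the 5 probes was 0.47.

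GSS showed a similar split by contig. Both probes of contig hamV2-113564 gave 0.47 and 0.54 with SDs of 0.60 and 0.55 over the 10 animals, and the 3 probes of contig hamV2-42702 gave 0.10 to 0.13 with SDs of 0.14 to 0.17. The SUOX probes ranged from 0.22 to 0.96, all 7 of them called higher.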
